A study of Mus musculus with 6 samples.

Results

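Nlrc5, Tap1, Psmb8, Psmb9 and H2-D1 are 5 genes through which a cell makes peptides and shows them on MHC class I molecules. They were followed in the uteri of mice 3.5 days post coitum, shortly before implantation, in mice with deleted Stat3 (Stat3 d/d, 3 arrays) and mice with floxed but intact Stat3 (Stat3 f/f, 3 arrays). Every probe set annotated to one of the 5 genes was taken, which gave 10 of the 1382 probe sets in the table of Affymetrix intensities. Of these, 9 carry 1 gene symbol (1 each for Nlrc5, Tap1, Psmb8 and Psmb9, and 5 for H2-D1) and 1 is annotated to H2-K1 and H2-D1 together. STAT3 is a transcription factor switched on by cytokines of the interleukin-6 family. All animals were female; the labels name no Cre driver, strain, age or pooling. Nor do they tie the arrays to separate animals, and the p-values therefore measure the spread between arrays, part or all of which may be technical.

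Nucleated cells display peptides from their own proteins on class I molecules, where cytotoxic T cells and natural killer cells read them. The immunoproteasome cuts proteins, the TAP transporter carries the peptides into the endoplasmic reticulum, and there they are loaded onto a heavy chain paired with a light chain. NLRC5 switches on the genes of this route by joining a protein complex on a conserved promoter module, and interferon gamma raises the whole set. In uterus before implantation, resident natural killer cells, macrophages and dendritic cells lie among epithelium and stroma.

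The table had been selected on this very comparison: the ratio of group means is nowhere under 1.5 in either direction, and the groups overlap for 0 probe sets. By limma with Benjamini-Hochberg adjustment (threshold 0.05), 1382 of 1382 probe sets were called (100%), 931 higher in Stat3 d/d (67.4%) and 451 lower (32.6%), so a call of a member adds nothing to its presence in the table. A gene missing from the table was not analysed here and cannot be called unchanged. Stat3 itself, on its brighter probe set, read 121, 101 and 131 in Stat3 d/d, against 262, 356 and 243 in Stat3 f/f, a log2 change of -1.27 (SE 0.20). Whether the deletion removes the stretch it reads was not tested. In bulk tissue, more cells that express a gene and more RNA per cell cannot be told apart. As a check of the tissue, the table held 2 of 13 epithelial, 1 of 9 stromal and 0 of 7 smooth muscle markers, and the selection prevents any reading of the absent ones. Those present moved too. The epithelial tight junction genes Cldn3 and Cldn4 rose by 0.68 to 0.78, with a summed intensity of 2361 to 2759 in Stat3 d/d and 1150.5 to 1849 in Stat3 f/f, and the mesothelial gene Upk3b rose by 0.74; these calls were lost when arrays were rescaled. The stromal proteoglycan gene Dcn read 9.59, 14.2 and 14.4 in Stat3 d/d, against 22.2, 25.7 and 34.9 in Stat3 f/f, and fell by 1.06 on the log2 scale. Their part in the changes of the class I genes was not tested. The oviduct gene Ovgp1 read 239.7 to 494 in Stat3 d/d and 7.42 to 31.3 in Stat3 f/f.

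Nlrc5, the transactivator of class I genes, showed the largest change of the 5 genes and ranked 20 of 1382 in the table by log2 change. Its intensity was 88.3, 92.1 and 81.9 in Stat3 d/d, against 10.9, 9.68 and 10.3 in Stat3 f/f. All 3 Stat3 d/d arrays lay far above the Stat3 f/f arrays, and within each group the arrays were close together. The mean was 87.4 ± 5.15 in Stat3 d/d and 10.3 ± 0.605 in Stat3 f/f (SD, n = 3 arrays each), an 8.50-fold ratio. On the log2(intensity + 1) scale, which understates the change of dim probe sets, Nlrc5 rose by 2.97 (SE 0.16, limma adjusted p = 3.68e-07). With a pseudocount of 16 the change was 1.98.

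Tap1 encodes a subunit of the peptide transporter. It read 181, 179 and 173 in Stat3 d/d, against 43.3, 56.7 and 55.7 in Stat3 f/f, and rose 3.43-fold by mean intensity (log2 change 1.77, SE 0.17, limma adjusted p = 1.6e-05). The Stat3 d/d arrays differed by a coefficient of variation of only 2.32%, an SD on the log2 scale at the percentile 3.04 of the table, against 14.3% in Stat3 f/f, where replicate 1 was the low array.

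Psmb9 encodes a catalytic subunit that replaces its constitutive counterpart when the immunoproteasome is built. Its intensity was 272, 266 and 236 in Stat3 d/d, against 70.9, 84.1 and 75.3 in Stat3 f/f. This is a 3.36-fold ratio of means (log2 change 1.74, SE 0.16, limma adjusted p = 1.35e-05), close to that of Tap1. The groups did not overlap, as for every probe set of the table.

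Psmb8, the chymotrypsin-like subunit of the immunoproteasome, moved less. It read 499, 465 and 362 in Stat3 d/d, against 187, 198 and 165 in Stat3 f/f, a 2.41-fold ratio of means (log2 change 1.26, SE 0.18, limma adjusted p = 0.000227). Replicate 3 was the lowest Stat3 d/d array and still lay well above every Stat3 f/f array.

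Tap1, Psmb9 and Psmb8 are neighbours. By RefSeq annotation of GRCm38.p6, protein-coding genes on chromosome 17 run in the order Psmb9, Tap1, Psmb8 and Tap2, inside the MHC. The partner transporter gene Tap2 was not analysed here. Psmb9 and Tap1 are transcribed away from each other, and 225 bases lie between their RefSeq start sites. That stretch is the promoter of both. It is shown because the changes of the 2 genes differed least among the 5 by point estimate (0.03 on the log2 scale). H2-D1, by its brightest probe set, and Psmb8 differed by 0.07. Without Stat3 d/d replicate 1 these differences were 0.05 and -0.03, in the reverse order of size. Whether the shared stretch bears on the changes was not tested. The stretch lies at chr17:34187331-34187555 and is given on the plus strand, the strand of Tap1. Capitals mark a cAMP response element core (TGACG) and a CCAAT box (ATTGG read on the other strand):

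Tap1 and Psmb9 shared promoter: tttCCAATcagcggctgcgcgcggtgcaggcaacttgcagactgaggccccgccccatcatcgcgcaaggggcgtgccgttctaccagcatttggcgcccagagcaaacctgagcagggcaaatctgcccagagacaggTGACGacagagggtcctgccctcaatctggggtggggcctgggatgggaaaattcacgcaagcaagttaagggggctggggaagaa

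Psmb8, the next gene, has its own promoter at chr17:34197995-34198194 (plus strand), whose single match is a gamma-activated sequence, the site type bound by STAT dimers (TTCNNNGAA, in capitals):

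Psmb8 promoter: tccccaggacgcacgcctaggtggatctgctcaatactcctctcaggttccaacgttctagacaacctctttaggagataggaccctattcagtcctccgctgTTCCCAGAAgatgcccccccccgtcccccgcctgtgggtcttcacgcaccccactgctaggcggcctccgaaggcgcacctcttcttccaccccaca

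H2-D1 encodes a classical class I heavy chain and was read by 5 probe sets. All were higher in every Stat3 d/d array than in any Stat3 f/f array. The groups were apart for all 1382 probe sets of the table (100%). The brightest read 2526, 1955 and 1437 in Stat3 d/d, against 882, 675 and 754 in Stat3 f/f. Its mean was 1973 ± 545 in Stat3 d/d and 770.3 ± 104 in Stat3 f/f (SD, n = 3), and it rose by 1.33 (SE 0.22, limma adjusted p = 0.000533). The Stat3 d/d arrays were spread much more widely than those of Nlrc5 or Tap1, with replicate 1 highest and replicate 3 lowest.

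The other H2-D1 probe sets gave log2 changes between 0.77 and 1.45. The next brightest read 2250, 1720 and 1323 in Stat3 d/d, against 809, 583 and 741 in Stat3 f/f (log2 change 1.29). The one after it in brightness read 537, 449 and 295 in Stat3 d/d, against 197, 161 and 179 in Stat3 f/f (log2 change 1.21). These 2 share the order of Stat3 d/d arrays of the brightest one.

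The only one of the 5 whose name carries no suffix for shared sequence read 148, 126 and 80.3 in Stat3 d/d. In Stat3 f/f it read 44.5, 37.8 and 42.2, and its log2 change was the largest of the 5, at 1.45 (SE 0.23). The dimmest read 27.8, 24.96 and 17.5 in Stat3 d/d, against 13.9, 12.4 and 12.9 in Stat3 f/f (log2 change 0.77, SE 0.20). Affymetrix gives the suffix _x_ to probe sets that can bind related transcripts, and class I heavy chains are near-identical over long stretches, so 4 of the 5 may read H2-K1 and other heavy chains too. The probe set annotated to H2-K1 and H2-D1 together read 416, 371 and 231 in Stat3 d/d, against 132, 107 and 127 in Stat3 f/f (log2 change 1.43).

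**Figure D1:**
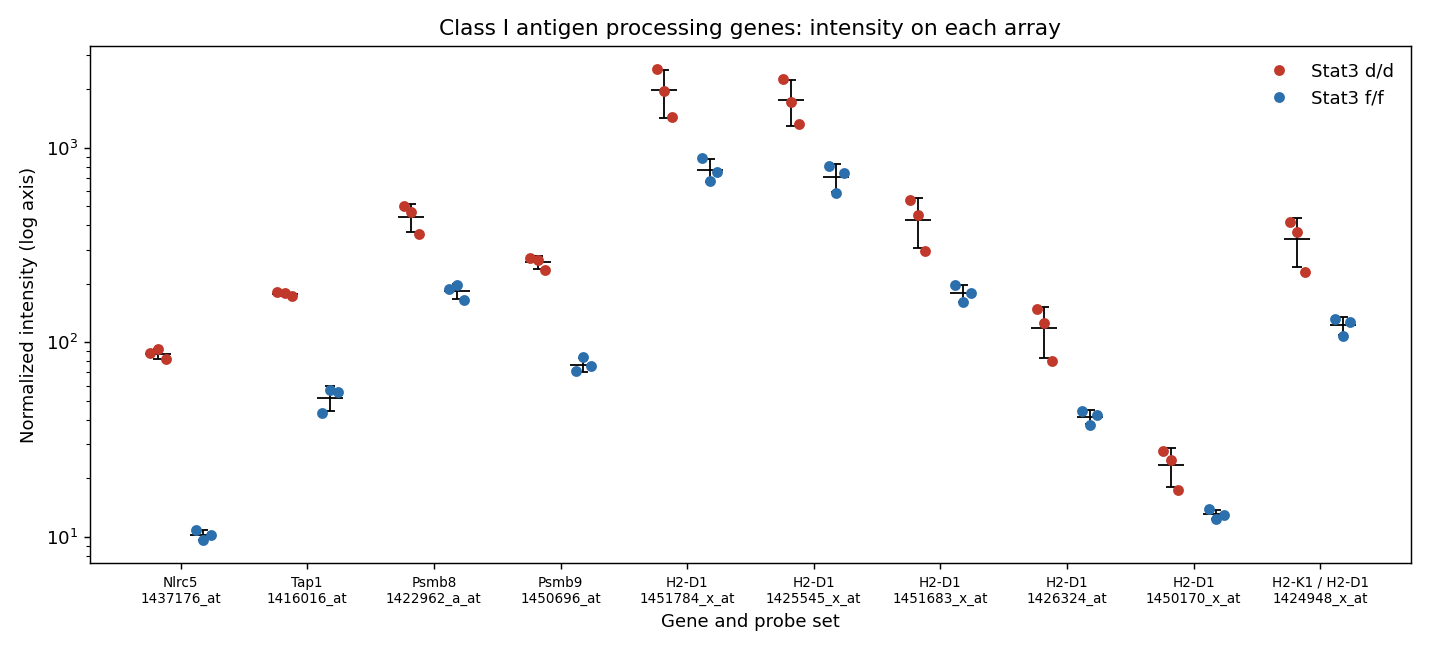
Normalized intensity (log axis) of the 10 probe sets on each array, with Stat3 d/d in red and Stat3 f/f in blue; black bars are the mean and SD of 3 arrays. The groups of every probe set are apart, as in the whole table. Nlrc5 is apart by the largest factor (8.50-fold), and the Stat3 d/d points of H2-D1 are spread more widely than those of Tap1.

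The promoter of H2-D1 is printed because it holds, in order, the elements through which class I heavy chain genes are known to be switched on. The 200 bases before the start site lie at chr17:35262894-35263093 (plus strand, GRCm38.p6). In capitals stand a kappa B site (GGG and TTCCC parted by 2 bases), an interferon response element (GAANNGAAA read on the other strand), the TGACG core, ATTGG, and a further ATTGG read on the other strand:

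H2-D1 promoter: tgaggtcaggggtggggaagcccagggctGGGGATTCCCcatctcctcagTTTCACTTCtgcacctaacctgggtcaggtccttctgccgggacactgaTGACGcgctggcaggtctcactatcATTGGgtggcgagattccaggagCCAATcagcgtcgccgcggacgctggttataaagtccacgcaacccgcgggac

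The pair TGACG and ATTGG forms part of the conserved module that the complex joined by NLRC5 occupies. A search for TGACG followed by ATTGG on the same strand after 15 to 25 bases found it in 143 of 32817 RefSeq promoter windows of 300 bases (0.436%). Of 17 pathway genes of the table, 16 had a window. Nlrc5 had none, so its promoter was not searched. The pair was held by 5 genes: H2-D1, H2-K1, B2m, H2-M3 and the class II gene H2-Aa. The spacing was 20 bases in the class I genes and 21 in H2-Aa. These stretches are shown side by side, each on the strand of its gene, with both elements in capitals:

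H2-D1: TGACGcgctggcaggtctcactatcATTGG
H2-K1: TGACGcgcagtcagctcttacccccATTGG
B2m: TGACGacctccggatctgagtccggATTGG
H2-M3: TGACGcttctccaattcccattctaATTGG
H2-Aa: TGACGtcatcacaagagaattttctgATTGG

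They lie at chr17:35262993-35263022 (H2-D1, plus strand), chr17:34000359-34000388 (H2-K1, minus strand), chr2:122147609-122147638 (B2m, plus strand), chr17:37270188-37270217 (H2-M3, plus strand) and chr17:34287867-34287897 (H2-Aa, minus strand). Tap1 and Psmb9 hold both elements in their shared stretch, but on opposite strands and not as this pair. Alone, TGACG matched 20.8% of all windows and ATTGG 37.4%, either of 2 interferon response spellings (GAANNGAAA, or GAAA and GAAA parted by 2 bases, which can overlap) 10.3%, the gamma-activated sequence 8.29% and the kappa B site 1.76%, with both strands searched. The motifs were chosen after these promoters had been read. A match is a description of the sequence, not a site shown to be used, and a window without one says only that these letters are not in it.

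**Figure D2:**
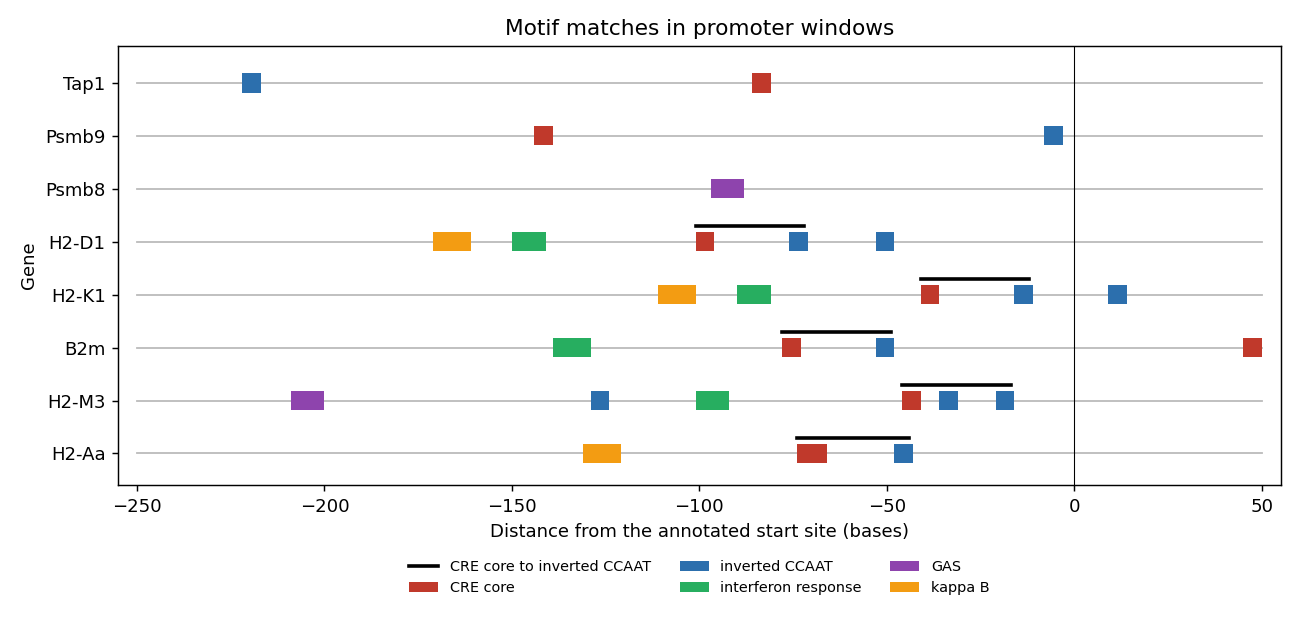
Positions of motif matches in the promoter windows of 8 genes, in bases from the annotated start site; coloured boxes are matches on either strand (GAS is the gamma-activated sequence, CRE core is TGACG) and black lines join TGACG to ATTGG 15 to 25 bases further on the same strand. The black line appears in H2-D1, H2-K1, B2m, H2-M3 and H2-Aa and in none of Tap1, Psmb9 and Psmb8.

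Whether the 5 genes changed by unequal amounts was examined within arrays, as the difference between the log2 values of 2 genes on the same array, with H2-D1 represented by its brightest probe set. By point estimate, Nlrc5 changed more in log2 intensity than each of the others. Its change exceeded that of Tap1 by 1.20 (95% interval 0.74 to 1.67), of Psmb9 by 1.23 (0.90 to 1.56), of H2-D1 by 1.64 (1.04 to 2.24) and of Psmb8 by 1.71 (1.31 to 2.11), and the 2 groups did not overlap in any of these 4 differences. With a pseudocount of 16 these excesses were 0.46, 0.41, 0.67 and 0.78. Tap1 and Psmb9 differed by 0.03 (-0.22 to 0.28), and H2-D1 and Psmb8 by 0.07 (-0.44 to 0.57), with overlapping groups in both. The H2-D1 probe sets changed by 0.77 to 1.45, so differences with H2-D1 depend on the probe set taken. Its other probe sets were not compared in this way. Psmb9 exceeded Psmb8 by 0.48 (0.17 to 0.79) and Tap1 exceeded Psmb8 by 0.51 (-0.04 to 1.06), without overlap. Of 10 pairs, 6 had groups that did not overlap, each with the smallest p that the exact permutation test of 3 arrays against 3 can give, 0.1 (two-sided; 0.167 after Benjamini-Hochberg adjustment over the pairs), so no pair could pass 0.05.

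The spread between Stat3 d/d arrays was wide for H2-D1 and narrower for Nlrc5, Tap1, Psmb9 and Psmb8. The 5 H2-D1 probe sets had coefficients of variation from 22.7% to 29.3% in Stat3 d/d and from 5.60% to 16.3% in Stat3 f/f. In Stat3 d/d, Nlrc5 varied by 5.89%, Tap1 by 2.32%, Psmb9 by 7.37% and Psmb8 by 16.2%. The brightest H2-D1 probe set stood at 128%, 99.1% and 72.8% of its Stat3 d/d mean on replicates 1, 2 and 3. Tap1 stood at 102%, 101% and 97.4% of its own mean on the same arrays.

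The order of Stat3 d/d arrays seen for H2-D1 was also that of the pan-leukocyte markers and of Tap1, Psmb8 and Psmb9. It therefore does not set H2-D1 apart. All 8 pan-leukocyte markers were in the table, and their summed intensity was 1143 to 1957 in Stat3 d/d and 470.3 to 725 in Stat3 f/f. On Stat3 d/d replicates 1, 2 and 3 that sum stood at 128%, 97.6% and 74.6% of its mean. Of the 9 pan-leukocyte probe sets, 9 were highest on replicate 1 and lowest on replicate 3. In the table, 222 of the 931 higher probe sets had this order (23.8%). The 5 H2-D1 probe sets had it too, but it was taken from them and they are annotated to 1 gene. That share is therefore no comparison for H2-D1. Tap1, Psmb8 and Psmb9 had the order with a narrower spread. Nlrc5 was highest on replicate 2. Natural killer cell markers were mixed: 5 of their 11 probe sets with 1 gene symbol had this order. Klrd1, Klra8, Klre1 and both Eomes probe sets were highest on replicate 2. Of the 4 macrophage and monocyte probe sets 3 had it, and Fcgr1 was lowest on replicate 2. The order differed in Stat3 f/f, where H2-D1 stood at 114%, 87.7% and 97.9% of its mean on replicates 1, 2 and 4, and the marker sum at 118%, 105% and 76.6%.

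Ptprc, the phosphatase CD45 of all leukocytes, read 420, 321 and 270.0 in Stat3 d/d, against 145, 107 and 81.6 in Stat3 f/f. Cd52, a small surface protein of lymphocytes and myeloid cells, rose by 1.64 (SE 0.31). Of natural killer cell markers 10 of 14 had a probe set of their own in the table, all higher. Among them were the receptor chain gene Klrd1 (log2 change 2.20) and the granzyme genes Gzmb (2.44) and Gzma (1.25). Their summed intensity was 415 to 609 in Stat3 d/d and 105 to 169 in Stat3 f/f. A further 2 probe sets from this list, each annotated to several genes, were also higher (0.67 and 3.61) and are not in the sum. Macrophage and monocyte markers in the table (4 of 14, all higher) summed to 358 to 688 in Stat3 d/d and 168 to 243 in Stat3 f/f, and dendritic cell markers (2 of 9, both higher) to 30.7 to 35.5 in Stat3 d/d and 11.6 to 14.1 in Stat3 f/f. Of the T cell markers 1 of 13 was present, Cd3g, dim at 6.31 to 17.9 in Stat3 d/d and 3.51 to 4.66 in Stat3 f/f, and of the B cell markers 1 of 8, Ighm. These counts of direction are a description only, in a table where 67.4% of all probe sets were higher. No marker intensity is 0 in this table. The part of leukocyte content in the changes of the class I genes was not tested.

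**Figure D3:**
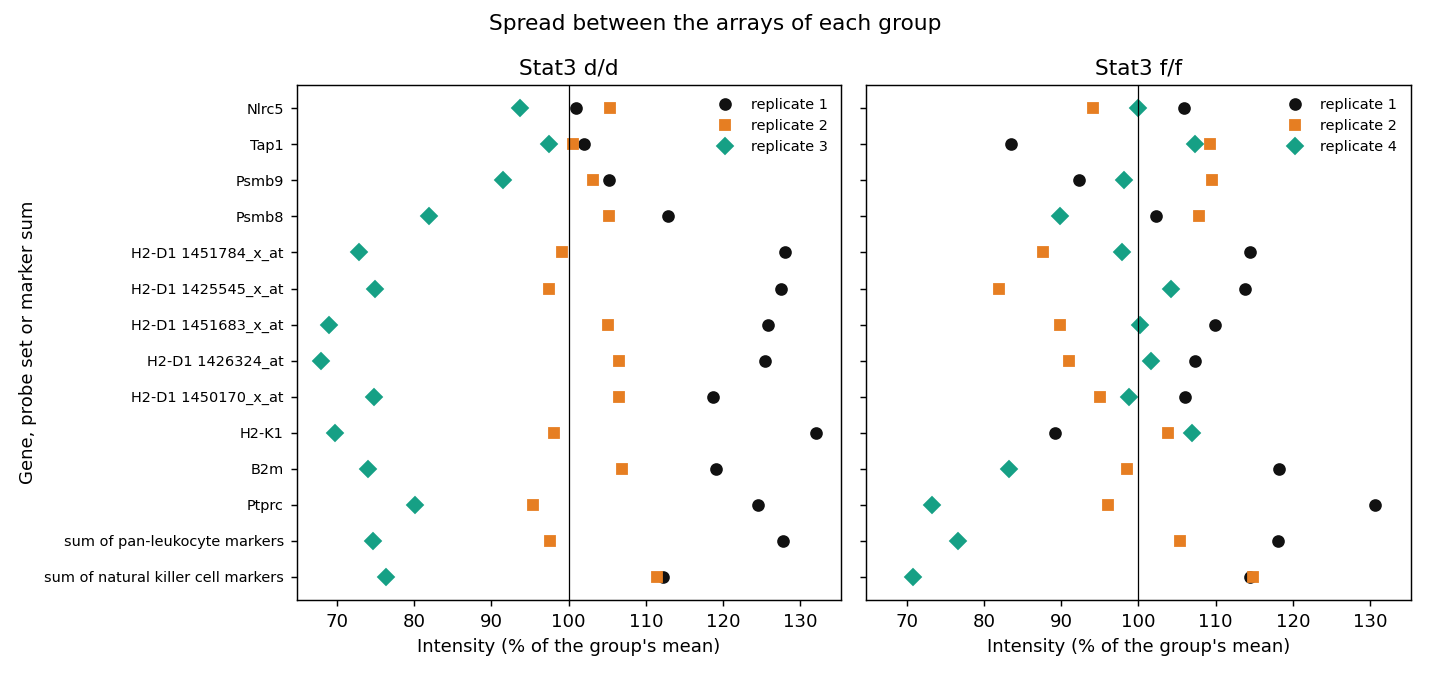
Intensity on each array as a percent of its group's mean, for Stat3 d/d (left) and Stat3 f/f (right), by gene, H2-D1 probe set or sum of markers; symbols stand for replicates. In Stat3 d/d, H2-D1, H2-K1, B2m and the pan-leukocyte sum spread widely, with replicate 3 low and replicate 1 high, while Tap1 keeps between 97.4% and 102%. In the natural killer cell sum, replicate 3 is low (76.4%) and replicates 1 and 2 are about equal (112% and 111%).

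The table holds only a small share of the rest of the route. Of 103 other genes on lists of class I chains, peptide loading, proteasome, transactivators, interferon gamma signalling and class II presentation, 12 had a probe set of their own in the table. Of these, 11 rose and 1, Rfxank, fell, in a table where 67.4% of all probe sets were higher, so the count says nothing particular about the route. After median centring 9 of their 17 probe sets passed, and 8 after quantile normalization. The median log2 change of their 17 probe sets was 0.87, against 1.38 for the 10 member probe sets, 0.70 for all 1382 and 0.93 for the 931 higher ones, a description only, since presence in the table required a difference.

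Among the class I chains, H2-K1, the other classical heavy chain, was read by 4 probe sets with log2 changes from 0.82 to 1.39, close to the range of H2-D1. Its brightest read 3103, 2307 and 1641 in Stat3 d/d, against 915, 1065 and 1097 in Stat3 f/f. B2m, the light chain that every class I molecule needs, was read by 2 probe sets that rose by 1.03 and 1.09, and the brighter reached 4352 on Stat3 d/d replicate 1. H2-M3, which presents formylated peptides, rose by 1.13 (SE 0.22). H2-Q2, a non-classical heavy chain, rose by 0.73 (SE 0.17) but was dim, at 6.17 ± 0.962 in Stat3 d/d and 3.29 ± 0.302 in Stat3 f/f.

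A further 6 probe sets are annotated to several symbols of the non-classical class I families each. All were higher, with log2 changes from 0.68 to 2.72, in a table where 67.4% of all probe sets were higher. The largest was that shared by H2-Q9 and H2-Q7, at 696, 614 and 307 in Stat3 d/d, against 115, 57.4 and 67.7 in Stat3 f/f. Those shared by H2-Q6 and H2-Q8, and by H2-Q6, H2-Q8 and H2-Q4, changed by 2.29 and 2.17. These 3 changes are larger than any of the H2-D1 probe sets, a difference that was not tested. No single gene can be named from them.

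For peptide handling, Erap1, the aminopeptidase that trims peptides in the endoplasmic reticulum, rose by 0.67 (SE 0.19) to 23.1 ± 0.696 in Stat3 d/d, against 14.3 ± 3.13 in Stat3 f/f. Psmb10, the remaining catalytic subunit of the immunoproteasome, read 290.0, 275 and 298 in Stat3 d/d, against 168, 192 and 165 in Stat3 f/f. It rose by 0.72 (SE 0.16), less than Psmb9 and Psmb8, a difference that was not tested. Unlike these 2, Psmb10 lies outside the MHC, on chromosome 8. Of 28 constitutive proteasome genes 0 were in the table and were not analysed here.

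Of the transactivators, Irf8, a factor of myeloid cells, rose by 0.87 and 0.68 on its 2 probe sets, and Irf9, part of the type I interferon signalling complex, by 0.60 (SE 0.17). Rfxank, a subunit of the complex that NLRC5 and its class II counterpart CIITA need on their promoters, was the gene that went down. It read 19.8, 22.5 and 21.0 in Stat3 d/d, against 38.1, 48.8 and 36.9 in Stat3 f/f, and fell by 0.93 on the log2 scale (SE 0.17, limma adjusted p = 0.000937). Its probe set carries the suffix _s_, which marks probes shared by several transcripts. Jak2, a kinase of the interferon gamma receptor, rose by 0.68 (SE 0.17). The other 9 genes of the interferon gamma list were not analysed here.

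Class II presentation was represented by 2 of 16 genes. H2-Aa, a class II chain, read 61.9, 51.2 and 23.3 in Stat3 d/d, against 21.6, 15.5 and 12.01 in Stat3 f/f (log2 change 1.34, SE 0.33), so that the lowest Stat3 d/d array barely cleared the highest Stat3 f/f array. Ctss, the protease that trims the class II chaperone and is rich in macrophages, rose by 1.79 (SE 0.31). Both were highest on Stat3 d/d replicate 1 and lowest on replicate 3, like H2-D1.

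**Figure D4:**
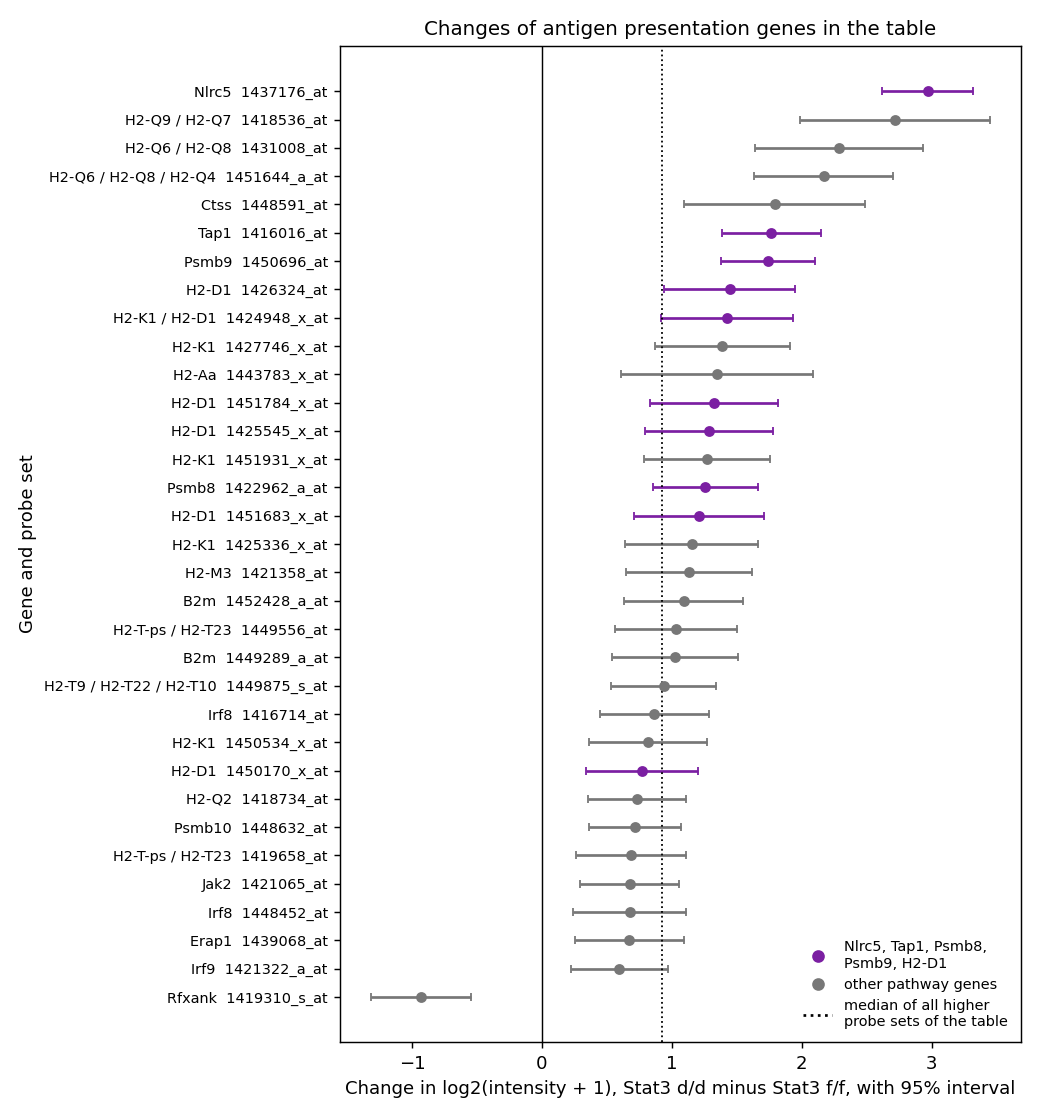
Log2 change (Stat3 d/d minus Stat3 f/f) with 95% interval of every pathway probe set in the table, with Nlrc5, Tap1, Psmb8, Psmb9 and H2-D1 in purple and other genes in grey; the dotted line is the median of the 931 higher probe sets (0.93). Nlrc5 is at the top with 2.97 and Rfxank alone lies below 0, at -0.93.

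The profile of the 5 genes was compared with 982 other genes over the 6 arrays, as the Pearson correlation with the mean of their centred log2 values. Those most alike were Ivd, a mitochondrial dehydrogenase of leucine breakdown (r = 0.997), Naip5, an inflammasome sensor of flagellin (0.997), Trim12a, a tripartite motif gene (0.997), Tmem267, a membrane protein (0.996), Crebl2, a leucine zipper factor (0.996), and Ndel1, a partner of the dynein motor (0.996). Trim12a read 29.2, 31.2 and 26.0 in Stat3 d/d, against 3.42, 3.08 and 3.01 in Stat3 f/f. Because all genes in the table separate the groups, likeness was high throughout: the median over the 655 higher genes was 0.918. The 5 genes themselves had r from 0.959 (H2-D1) to 0.997 (Psmb9) with their own mean profile. The values were centred but not scaled, so Nlrc5, with the largest change, weighs most in that profile.

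A table selected for differences does not show which scaling between arrays is right, and the scaling sets the size of every change. Centring the arrays on their medians lowered the median change of all probe sets by 0.47, and quantile normalization by 0.45, with 422 higher and 451 lower calls after centring and 436 higher and 451 lower after quantile normalization. After centring, the changes were 2.50 for Nlrc5, 1.30 for Tap1, 1.27 for Psmb9, 0.79 for Psmb8 and 0.31 to 0.98 for the H2-D1 probe sets. Of the 10 member probe sets 9 kept a limma adjusted p under 0.05 after centring. The dimmest H2-D1 probe set lost its call, with an adjusted p of 0.18 after centring and 0.122 after quantile normalization. When adjustment assumed 45000 tests, about the size of a whole array, 9 of the 10 were called higher, against 28% of the table (9.48% were called lower and 37.5% in either direction), and the same probe set was lost (limma adjusted p = 0.131). Several of these 10 probe sets read the same gene, H2-D1, and the members were chosen with earlier results known. These shares are therefore a description only. Among the other pathway genes, H2-Q2, Erap1, Psmb10, Irf8, Irf9, Jak2 and the dimmest probe set of H2-K1 lost their calls after centring, as did, after quantile normalization, the brighter of B2m. Of the shared heavy chain probe sets, the dimmer of H2-T-ps and H2-T23 (log2 change 0.68) lost its call under both scalings. The brighter of that pair (1.03) and that of H2-T9, H2-T22 and H2-T10 (0.94) lost theirs after quantile normalization. Among the leukocyte markers, Laptm5, Coro1a, Klrk1, Ighm, Fcgr1, Adgre1 and the dimmer Eomes probe set lost their calls under both scalings.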

How the data were processed

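Per the labels' protocols, Affymetrix arrays were hybridised with biotin-labelled cRNA made from uterine RNA. Deposited are linear intensities, 1 per probe set and array. The submitters' processing notes name RMA, which gives log2 values; the linear scale was read from the deposited values, and how it was reached is not recorded. The genome build was not given in the sources used here, and neither were software versions. The planned log2 input was therefore log2(intensity + 1). Probe sets were named from the platform annotation: 1191 had 1 symbol, 57 several and 134 none; 1186 matched RefSeq (GRCm38.p6) by ID, which also gave gene order and promoter sequences (250 bases before to 50 after a start).

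The groups were compared, Stat3 d/d minus Stat3 f/f, with limma 3.58.1 under R 4.3.3 (lmFit, eBayes, no covariate) and adjustment over all 1382 probe sets; the fit was tested on simulated data. Intensities of different probe sets are not on a common scale per transcript: brightness only tells probe sets of a gene apart, and marker sums are compared only between arrays. Members and gene lists were chosen with earlier results of these data known. Named genes are all members, every listed pathway gene in the table, up to 4 of the brightest markers per list, Stat3, and the 6 genes of most similar profile; the shared heavy chain probe sets follow from the pathway lists. Markers named for losing their calls or for their order of arrays were chosen after their values were seen. The number of arrays limits the precision. Differences between genes were tested by exact permutation (scipy 1.17.1). Alternatives were other scalings, pseudocounts, a filter on dim probe sets, variance models, array weights, a replicate block, assumed tests and leaving out each array.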

Additional observations from a re-analysis of the deposited data

How the results depend on the processing

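The 10 member probe sets stayed higher in Stat3 d/d under every alternative run. Of 160 recomputed changes, 157 kept their side of the threshold and 3 did not, each of the dimmest H2-D1 probe set, at 0.31 after median centring, 0.35 after quantile normalization and 0.77 with 45000 tests assumed. All 1382 probe sets and the 17 of other pathway genes passed in the analysis as reported; after median centring 873 and 9 passed, after quantile normalization 887 and 8, and with 45000 tests assumed 518 and 7. Fewer tests pass there because rises are lowered or the adjustment is stricter. Leaving out each array in turn kept all 10 member probe sets and all 17 others called, with 1347 to 1377 called in the table, and Nlrc5 between 2.93 and 3.02. Replicate numbers 1 and 2 occur in both groups, but the labels do not say that they mark a shared litter or day, and same-numbered arrays hardly deviated together (correlations 0.09 and 0.03). In the fit with the replicate block, Stat3 d/d replicate 3 and Stat3 f/f replicate 4 have no partner. Each change there rests on replicates 1 and 2, so it is no check on all arrays. With that block, 10 member probe sets and 1284 of the table passed, and no call of a member changed. Without variance moderation, a setting chosen after seeing the data, 10 and 1363 passed. Of 90 recomputed differences between members, chosen likewise, 4 moved by more than the spread between arrays, all for Nlrc5 with a pseudocount of 16. The deposited values do not give the background level of each probe set, so dim values such as those of Nlrc5 in Stat3 f/f may lie near it.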
